A study of Mus musculus with 6 samples.

Results

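The genes described here encode the hypoxia-inducible factors (HIF) and the proteins that control them, with a pair of their target genes. The 10 members were taken by symbol from the deposited table of 53445 loci, which includes overlapping loci, and the longest locus was used where a symbol was listed more than once. They are the alpha subunits Hif1a and Epas1, the beta subunit Arnt, the von Hippel-Lindau gene Vhl, the asparaginyl hydroxylase gene Hif1an, the prolyl hydroxylase genes Egln1, Egln2 and Egln3, and the targets Vegfa and Bnip3. Transcripts were sequenced from the Lin-Sca+Kit+ (LSK) fraction of bone marrow, which holds hematopoietic stem cells and multipotent progenitors, with 3 libraries of OgaVav-Cre and 3 of wildtype mice. All 6 mice were C57BL/6 females of about 12 weeks. OgaVav-Cre mice came from a cross of Oga fl/fl mice with the Vav-iCre transgenic line, in which the Vav promoter drives Cre. The authors used this line to delete Oga in the hematopoietic lineage. The wildtype mice are described by that word alone in the labels. At least 20000 cells were sorted for each library, and each library stands for 1 mouse. Oga encodes O-GlcNAcase, which removes the sugar O-GlcNAc from intracellular proteins. The comparison asked whether transcripts of the HIF pathway differed when this removal was blocked.

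A HIF is a dimer of an alpha and a beta subunit that binds DNA and turns on genes for glycolysis, blood vessel growth and erythropoiesis. When oxygen is present, prolyl hydroxylases modify the alpha subunit, the VHL protein recognizes the modified form, and the subunit is degraded. The asparaginyl hydroxylase FIH, encoded by Hif1an, blocks binding of coactivators such as CBP and p300. Most of this control acts on the protein, which RNA-Seq does not measure, while several of the controllers, Egln3 among them, are themselves HIF target genes. Hematopoietic stem cells live in a poorly oxygenated niche, and HIF-1α is known to help keep them quiescent and glycolytic.

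None of the 10 HIF genes was called changed in OgaVav-Cre LSK cells. A locus was called changed at an adjusted p-value below 0.05 together with a log2 fold change above 1 or below -1, by the quasi-likelihood F test of edgeR, with p-values adjusted by the Benjamini-Hochberg method over all 22032 loci tested. By this rule 7 loci, 0.0318% of those tested, were changed, 1 of them (0.00454%) higher and 6 (0.0272%) lower in OgaVav-Cre. With the same cutoffs but another test, limma-trend on RPKM with a pseudocount of 0.1, it was 0 higher and 5 lower. All 10 members passed the filter on low counts and were tested. Without OgaVav-Cre replicate 3, which stood apart in its markers, 0 of the 10 were called as well. At an unadjusted p-value below 0.05, 0 of the 10 passed, against 10.6% of all loci (2346 loci). DESeq2 also called 0 of the 10, while it called 117 loci in all (0.473% of those it tested). Of the members, 5 had a log2 fold change above 0 and 5 below, where 50.5% of all loci were above 0, with a median log2 fold change of -0.04, against 0.00 for all loci tested. Each log2 fold change lay between -0.5 and 0.5, as did those of 77.6% of all loci.

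Libraries held 25190298 to 27064389 counted reads in OgaVav-Cre and 19318056 to 21684561 in wildtype. Mgea5, the former symbol of Oga and the gene targeted here, was at 4.31 ± 0.299 CPM (read counts scaled to library size with TMM factors; SD, n = 3) in OgaVav-Cre and 139 ± 20.7 in wildtype (log2 fold change -5.01, SE 0.167, adjusted p = 5.88e-05 in edgeR). Transcripts of Ighm, Igkc and Igj, which encode parts of antibodies, took 1.17 to 9.88% of the reads in OgaVav-Cre libraries and 1.36 to 5.48% in wildtype. The highest share was that of OgaVav-Cre replicate 1. The 10 LSK markers, led by Ly6a, Cd34 and Hlf, were above 3 reads in every library, and none was called changed. OgaVav-Cre replicate 3 stood apart, with the lowest sum of LSK markers (1130.0 CPM, against 1505 to 2634 in the other libraries) and the highest sum of 17 markers of lineage-positive cells (4097 CPM, against 864 to 1964), led by Hba-a1, Lyz2 and Hbb-b1. Of those 17 markers, 16 were above 3 reads in every library and Ly6g was at 0 in 1 library. In such sorted populations, fewer cells of a type and less RNA per cell cannot be told apart.

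**Figure D1:**
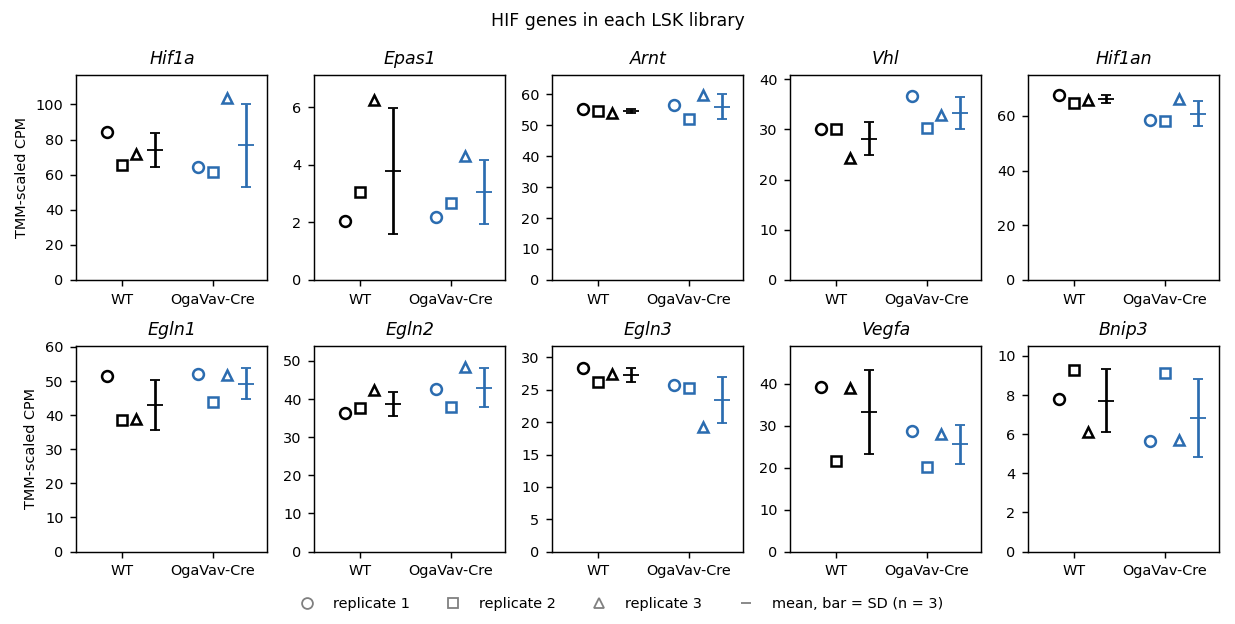
TMM-scaled CPM of each HIF gene in the 3 wildtype (WT, black) and 3 OgaVav-Cre (blue) libraries, with the marker shape giving the replicate number and the bars the mean and SD (n = 3). The genotypes overlapped for 8 of the 10 genes, and OgaVav-Cre replicate 3 was the highest Hif1a library at 103.9 CPM.

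Hif1a, which encodes the oxygen-labile subunit of HIF-1 (mm9 chr12:75008854-75048541, plus strand), was at 64.4, 61.8 and 103.9 CPM in OgaVav-Cre replicates 1, 2 and 3. In wildtype replicates 1, 2 and 3 it was at 84.5, 65.5 and 71.6 CPM. The genotypes overlapped, and the highest value, in OgaVav-Cre replicate 3, belonged to the library with the highest sum of lineage-positive markers, whose part in this value was not tested. The means were 76.7 ± 23.6 and 73.8 ± 9.71 CPM, with a log2 fold change of 0.05 (SE 0.217, 95% interval -0.45 to 0.56, adjusted p = 0.943 in edgeR). Without OgaVav-Cre replicate 3 the log2 fold change was -0.23 and without wildtype replicate 2 it was -0.02, so single libraries set the direction. The log2 fold change also turned, to -0.05 and -0.04, in RPKM with pseudocounts of 0.1 and 1. On these scales the median of all loci was -0.065 and -0.041. Between replicates, Hif1a varied by 30.8% of its mean in OgaVav-Cre and 13.2% in wildtype, where counting error alone would give 2.26 and 2.51%.

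Reads of this gene were also counted at other loci of the table. The locus listed as Hif1a/Gm5068 (mm9 chr12:75002362-75062434, plus strand) covers all of Hif1a and held 1477, 1606 and 2929 reads against 1856, 1297 and 1742 in wildtype, close to the 1452, 1561 and 2847 against 1803, 1262 and 1692 reads of Hif1a itself. A second locus named Hif1a, on the minus strand (chr12:75027468-75050772), held 76 to 156 reads in each library. Whether the counting used the strand is not given in the sources used here, so reads of such overlapping loci cannot be told apart with certainty. Over the 6 libraries, the loci of at least 10 CPM whose log2 CPM was most like that of Hif1a were Hif1a/Gm5068 (Pearson r = 1.00), Lnx2 (r = 0.994) and Nucb2 (r = 0.993). These are descriptions from 6 libraries, of which OgaVav-Cre replicate 3 was the highest for all 4 loci, and 1.77% of the 11875 loci compared had an r above 0.9.

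Epas1, which encodes HIF-2α (chr17:87153040-87232750, plus strand), was the least abundant of the 10 genes. Its read counts were 49, 68 and 118 for OgaVav-Cre against 44, 59 and 148 for wildtype, or 2.17, 2.69 and 4.31 CPM against 2.06, 3.06 and 6.26 CPM. Replicate 3 was the highest library in each genotype, and the OgaVav-Cre values fell inside the wildtype range. The log2 fold change was -0.31 (SE 0.464, 95% interval -1.39 to 0.76, adjusted p = 0.825 in edgeR), the widest interval among the 10 genes, and it turned to 0.26 without wildtype replicate 3. Epas1 is also expressed in endothelial cells, most of which the Lin-Sca+Kit+ gate should remove. A list of 16 markers of endothelial and stromal cells, led by Pecam1, Tie1 and Esam, which hematopoietic stem cells express as well, was above 3 reads in every library for all 16. Their summed level was 281, 305 and 278 CPM in OgaVav-Cre against 230.4, 308 and 296 CPM in wildtype. This sum hid markers that went in different directions, named here after their values were seen. In OgaVav-Cre replicate 3, Kdr, Cdh5 and Plvap were at 10.4, 8.68 and 5.03 CPM, their highest of the 6 libraries. Tie1, Esam and Emcn were at 23.8, 8.87 and 6.09 CPM there, their lowest. The part of such cells in the Epas1 values was not tested. The loci most like Epas1 over the 6 libraries were Mgrn1 (r = 0.992), Tmppe (r = 0.980) and Tep1 (r = 0.967), with 0.480% of 11876 loci above 0.9.

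Arnt, which encodes the beta subunit HIF-1β shared by several factors of its family (chr3:95238309-95301162, plus strand), had the smallest SD relative to its mean in both genotypes. Its level was 56.6, 51.9 and 59.7 CPM in OgaVav-Cre against 55.3, 54.7 and 54.0 CPM in wildtype. The wildtype values fell inside the OgaVav-Cre range. The log2 fold change was 0.04 (SE 0.108, 95% interval -0.21 to 0.29, adjusted p = 0.921 in edgeR), and it changed sign to -0.01 without OgaVav-Cre replicate 3. It was also negative, at -0.03, in RPKM with either pseudocount, where the median of all loci was -0.065 and -0.041.

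Vhl, which encodes the substrate-recognition part of the ubiquitin ligase that marks HIF-α for degradation (chr6:113573953-113581627, plus strand), was at 36.6, 30.3 and 33.0 CPM in OgaVav-Cre against 30.0, 30.0 and 24.3 CPM in wildtype. All OgaVav-Cre libraries exceeded the wildtype ones, though only by the step from 30.0 to 30.3 CPM. Vhl and Egln3 were the 2 of 10 members whose genotypes did not overlap, against 17.5% of all loci tested, and of these loci OgaVav-Cre was the higher in 7.50% and the lower in 9.97% of all tested. The Vhl log2 fold change was 0.24 (SE 0.148, adjusted p = 0.573 in edgeR), and on the authors' RPKM scale the genotypes overlapped. Hif1an, which encodes FIH (chr19:44637340-44650764, plus strand), was at 58.6, 58.0 and 66.1 CPM in OgaVav-Cre against 67.8, 64.8 and 65.8 CPM in wildtype. The genotypes overlapped through OgaVav-Cre replicate 3, and the log2 fold change was -0.12 (SE 0.108, adjusted p = 0.698 in edgeR).

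The prolyl hydroxylase genes did not share a direction. Egln1 encodes PHD2, the main oxygen sensor for HIF-1α in most cells (chr8:127432487-127473154, minus strand), and was at 52.1, 44.0 and 51.7 CPM in OgaVav-Cre against 51.5, 38.7 and 39.0 CPM in wildtype. Wildtype replicate 1 lay among the OgaVav-Cre values while the other wildtype libraries were below them, and the log2 fold change was 0.19 (SE 0.154, adjusted p = 0.657 in edgeR). Egln2, which encodes PHD1 (chr7:27943677-27951821, minus strand), was at 42.8, 38.0 and 48.3 CPM in OgaVav-Cre against 36.4, 37.7 and 42.3 CPM in wildtype. These ranges overlapped, with a log2 fold change of 0.15 (SE 0.138, adjusted p = 0.702 in edgeR).

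Egln3 encodes PHD3, whose gene is itself induced by HIF (chr12:55279968-55304861, minus strand). Its level was 25.8, 25.3 and 19.3 CPM in OgaVav-Cre against 28.4, 26.2 and 27.4 CPM in wildtype. All OgaVav-Cre libraries were below the wildtype ones, both in CPM and in RPKM, and OgaVav-Cre replicate 3 was the lowest. The log2 fold change was -0.22 (SE 0.156, 95% interval -0.58 to 0.14, adjusted p = 0.617 in edgeR), so the interval held 0 and Egln3 was not called changed. Without OgaVav-Cre replicate 3, the log2 fold change of Egln3 was -0.10.

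Vegfa, which encodes the vascular endothelial growth factor A and is a direct HIF target (chr17:46153942-46169326, minus strand), was at 28.6, 20.3 and 27.9 CPM in OgaVav-Cre. Wildtype replicates 1, 2 and 3 were at 39.2, 21.7 and 38.9 CPM. Replicate 2 was low in both genotypes, and wildtype replicate 2 lay inside the OgaVav-Cre range while the other wildtype libraries were above it. The log2 fold change of -0.38 was the largest in size among the 10 genes (SE 0.255, 95% interval -0.97 to 0.21, adjusted p = 0.602 in edgeR). A second locus named Vegfa, on the plus strand (chr17:46167879-46169132), lies within the first and held 81 to 207 reads in a library. Bnip3, which encodes a mitochondrial protein of the BCL2 family that promotes mitophagy (chr7:146082519-146101202, minus strand), was at 5.68, 9.14 and 5.69 CPM in OgaVav-Cre against 7.78, 9.29 and 6.09 CPM in wildtype. Replicate 2 was the highest in each genotype, and the log2 fold change was -0.17 (SE 0.277, adjusted p = 0.840 in edgeR).

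**Figure D2:**
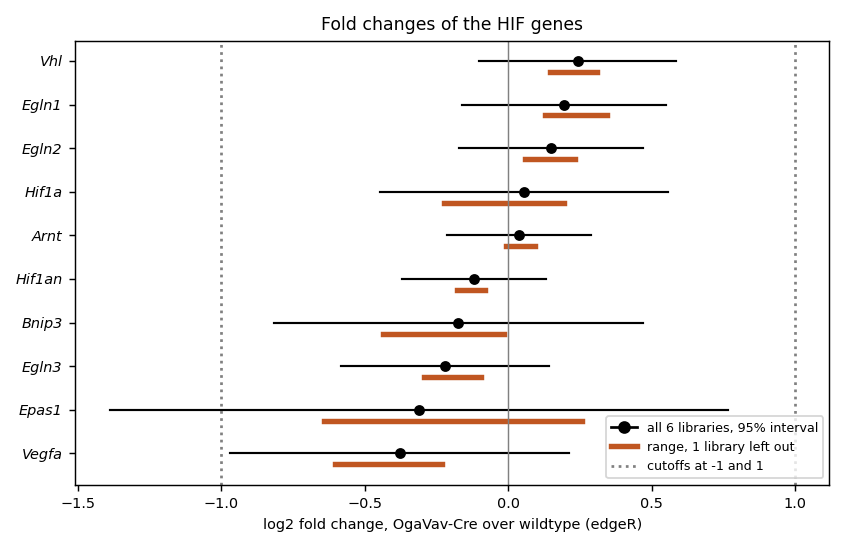
Log2 fold change of OgaVav-Cre over wildtype for each HIF gene (points, with 95% intervals from edgeR), with the range when 1 library at a time was left out (orange bars) and dotted lines at the cutoffs of -1 and 1. All 10 intervals included 0, and the interval of Epas1 alone reached past -1.

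Precision differed between the genes. The 95% interval held 0 for all 10 genes, lay within a 2-fold change in either direction for 9 of them and within a 1.5-fold change for 6. Epas1 was the gene whose interval went beyond 2-fold. Its level varied between replicates by 36.4% of its mean in OgaVav-Cre and 57.8% in wildtype, where counting error alone would give 11.3 and 10.9%. An interval that holds 0 does not show that levels were equal.

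**Figure D3:**
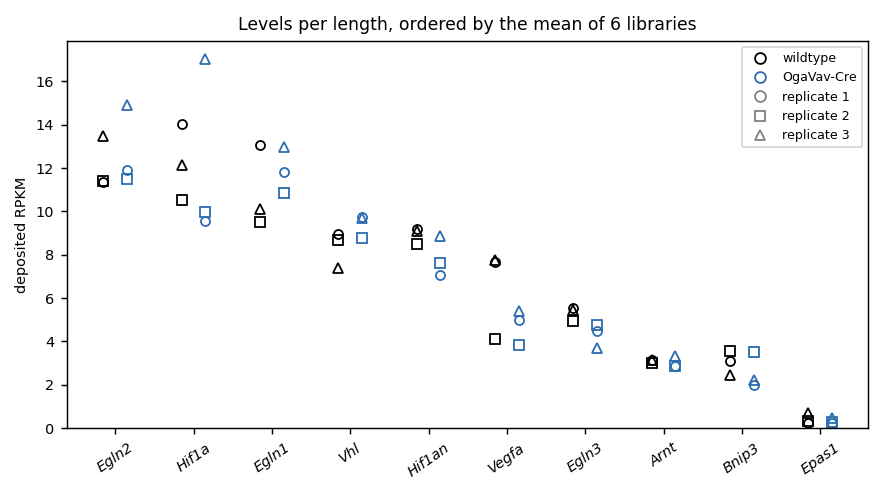
Deposited RPKM of the HIF genes in the 6 libraries, ordered by their mean, with black for wildtype, blue for OgaVav-Cre and the marker shape for the replicate. Means ranged from 12.4 for Egln2 to 0.374 for Epas1, and most neighbours in the order overlapped.

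Levels were compared between genes per length, in the RPKM that the authors deposited, which are reads scaled to library size and locus length. Egln2 had the highest mean over the 6 libraries, 12.4 RPKM, followed by Hif1a at 12.2, Egln1 at 11.4, Vhl at 8.89, Hif1an at 8.38, Vegfa at 5.63, Egln3 at 4.82, Arnt at 3.06, Bnip3 at 2.80 and Epas1 at 0.374. Only Egln3 and Arnt, and Bnip3 and Epas1, were neighbours in this order whose libraries did not overlap. The order depends on the length each locus is given. Arnt was divided by 15757 bases in the deposited table, while the exons of the GENCODE vM1 annotation of mm9 cover 8001 bases, and the lengths of Egln3 (4590 against 2662 bases) and Epas1 (8050 against 5309 bases) differed in the same way. With the GENCODE lengths, Egln3 and Arnt ranked above Vegfa, Egln1 ranked above Hif1a, and Epas1 was still the lowest.

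Within a library, Hif1a was far more abundant per length than Epas1. Its share of the summed RPKM of Hif1a and Epas1 was 97.8, 97.2 and 97.3% in OgaVav-Cre and 98.4, 97.0 and 94.5% in wildtype. The lowest share, in wildtype replicate 3, came with the highest Epas1 level. Hif3a, which encodes the third alpha subunit and was named after its values were seen, is not counted in this share, and at 1.11, 0.841 and 0.512 RPKM in OgaVav-Cre against 0.912, 1.79 and 1.81 RPKM in wildtype it was above Epas1 in every library. The means, 97.4 ± 0.329% and 96.6 ± 1.99% (SD, n = 3), differed by 0.81 percentage points (two-sided exact permutation test, p = 0.7), in a test where 3 against 3 libraries cannot give a p-value below 0.1. Egln1 and Egln2 shared most of the prolyl hydroxylase transcripts, with Egln1 at 34.8 to 43.6% and Egln2 at 38.0 to 47.2% of the summed RPKM of the Egln genes over the 6 libraries. Egln3 made up 15.9, 17.6 and 11.8% in OgaVav-Cre and 18.4, 19.1 and 18.8% in wildtype. The genotypes did not overlap in this share, with means of 15.1 ± 3.01% and 18.8 ± 0.347% (SD, n = 3) and a difference of -3.69 percentage points, which was -2.02 without OgaVav-Cre replicate 3 and -4.95 without OgaVav-Cre replicate 2. The share also depends on the length given to Egln3, and with the GENCODE lengths the difference was -5.06 percentage points. The exact permutation p was 0.1, the smallest possible here, and 0.5 after Benjamini-Hochberg adjustment over the 5 shares and ratios tested. The ratio of summed Egln RPKM to summed Hif1a and Epas1 RPKM was 2.89, 2.65 and 1.804 in OgaVav-Cre and 2.10, 2.38 and 2.26 in wildtype (exact permutation p = 0.6). Its lowest value came from OgaVav-Cre replicate 3, where Hif1a was highest.

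**Figure D4:**
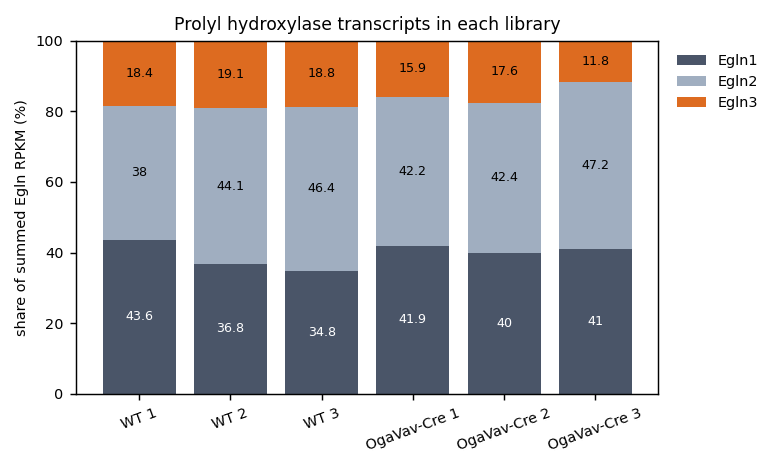
Share of Egln1, Egln2 and Egln3 in their summed RPKM, in percent, in each library (WT, wildtype). Egln3 took 11.8 to 17.6% in OgaVav-Cre and 18.4 to 19.1% in wildtype.

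HIF dimers bind a short core element, and the promoters of the members were searched for its forms ACGTG and GCGTG on both strands, so that CACGT and CACGC also count. Promoter windows of 250 bases before to 50 bases after the start of transcription came from RefSeq (GRCm38.p6), and each was placed on mm9 by a unique match. Of 32851 windows of this length in the table, 43.8% held at least 1 match. A window was given for 9 of the 10 members, all but Epas1. Of their 11 windows, 8 held a match. Counted by gene, 7 of the 9 held a match in at least 1 window, where Egln2 and Vegfa had more than 1 window. The windows shown are those of Bnip3, a known direct target with 5 matches, and of Egln3. Egln3 is a HIF-induced hydroxylase gene and 1 of the 2 members whose genotypes did not overlap. Both are examples of HIF-regulated genes with a match, and the windows of Vegfa, another direct target, are not shown. Capitals mark the matches, and letters run 5′ to 3′ along the minus strand, on which both genes lie, at chr7:146101140-146101439 for Bnip3 and chr12:55304812-55305111 for Egln3.
Bnip3: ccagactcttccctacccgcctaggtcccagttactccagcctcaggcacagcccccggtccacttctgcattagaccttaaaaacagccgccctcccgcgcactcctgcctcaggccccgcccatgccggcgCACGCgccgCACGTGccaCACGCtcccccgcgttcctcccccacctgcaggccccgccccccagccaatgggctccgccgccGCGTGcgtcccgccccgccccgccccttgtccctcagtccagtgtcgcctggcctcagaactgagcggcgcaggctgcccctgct
Egln3: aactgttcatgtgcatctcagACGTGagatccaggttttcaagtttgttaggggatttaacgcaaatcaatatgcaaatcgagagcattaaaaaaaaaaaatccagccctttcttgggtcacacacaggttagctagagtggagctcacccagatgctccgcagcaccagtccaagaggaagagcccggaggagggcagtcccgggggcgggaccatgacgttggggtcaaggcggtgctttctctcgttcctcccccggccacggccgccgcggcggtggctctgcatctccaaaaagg
The Bnip3 window had overlapping matches on both strands in the run CACGTG. Windows of Vhl, Hif1an and the main start of Vegfa held 0 matches, and that of Hif1a held 3. A match describes letters and not a bound site, and both windows belong to genes that were not called changed.

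Other genes of the pathway were examined in a list of 30 HIF partners and regulators. Of these, 29 were tested (Tdgf1 was not), and 0 were called changed in edgeR. At an unadjusted p-value below 0.05, 0 were higher and 2 lower in OgaVav-Cre, against 4.38% higher and 6.27% lower of all loci. The median log2 fold change was 0.05, with 19 genes higher and 10 lower. In 4 of the 29 genes, Ogt, Ing4, Crebbp and Mdm2, all OgaVav-Cre libraries were below the wildtype ones, against 9.97% of all loci in that direction.

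Ogt, which encodes the transferase that adds O-GlcNAc, had the smallest p-value of that list, at 518, 400.4 and 544 CPM in OgaVav-Cre against 594, 908 and 870.4 CPM in wildtype. All 3 OgaVav-Cre libraries were lower, with a log2 fold change of -0.70 (SE 0.205, adjusted p = 0.412 in edgeR). Ing4, which encodes a chromatin-binding protein of the ING family, was at 42.1, 38.4 and 39.1 CPM against 46.2, 52.9 and 50.7 CPM in wildtype (log2 fold change -0.32, SE 0.116, adjusted p = 0.431). Crebbp, which encodes the coactivator CBP, had a log2 fold change of -0.30 (SE 0.134, adjusted p = 0.483), and Mdm2, which encodes the ubiquitin ligase of p53, one of -0.24 (SE 0.109, adjusted p = 0.490). Arnt2, a paralog of Arnt, was covered by few reads, 35, 9 and 34 for OgaVav-Cre against 13, 2 and 2 for wildtype. Its log2 fold change of 1.96 had an SE of 0.869 (adjusted p = 0.483 in edgeR), and the genotypes overlapped. With 1 library left out, the value ranged from 1.52 to 3.41, the highest without wildtype replicate 1. It was as low as 0.14 in RPKM with a pseudocount of 1, which is far above the RPKM of Arnt2, at most 0.201 in a library.

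A list of 44 genes known to be induced by hypoxia in many cell types, with many genes of glycolysis among them, was treated in the same way. Of these, 39 were tested, 0 were called changed in edgeR, and the median log2 fold change was 0.05, with 24 higher and 15 lower. At an unadjusted p-value below 0.05, Pgk1 and Ldha were higher and Wsb1 was lower, against the same 4.38 and 6.27% of all loci. In 4 of the 39 genes, Hk2, Kdm4b, Pgk1 and Pkm2, all OgaVav-Cre libraries were above the wildtype ones, and in Wsb1 they were below, against 7.50 and 9.97% of all loci. Pgk1, which encodes the glycolytic phosphoglycerate kinase, was at 16.2, 18.9 and 13.4 CPM in OgaVav-Cre against 12.9, 9.29 and 10.8 CPM in wildtype. Its genotypes did not overlap (log2 fold change 0.55, SE 0.203, adjusted p = 0.439 in edgeR). Ldha, which encodes the lactate dehydrogenase subunit that makes lactate from pyruvate, was at 209, 230.0 and 189 CPM in OgaVav-Cre against 190.3, 135 and 132 CPM in wildtype. OgaVav-Cre replicate 3 and wildtype replicate 1 met at about the same level, and the log2 fold change was 0.46 (SE 0.175, adjusted p = 0.445).

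Wsb1, which encodes a ubiquitin ligase subunit that is induced by hypoxia, was below wildtype in every OgaVav-Cre library (log2 fold change -0.33, SE 0.132, adjusted p = 0.452 in edgeR). Tpi1, the glycolytic triosephosphate isomerase gene, had a log2 fold change of 0.41 (SE 0.175, adjusted p = 0.469), and Plod1, a lysyl hydroxylase gene of collagen, one of -0.58 (SE 0.256, adjusted p = 0.477). Pgk1, Ldha and Tpi1 have near-identical copies in the mouse genome, and how reads that align to several places were counted is not given in the sources used here, so these values are uncertain. The longest locus of Mif, which encodes a cytokine, did not pass the filter on low counts, and a shorter locus held the reads, 2454, 2888 and 2134 against 1839, 1252 and 1574 in wildtype (log2 fold change 0.47, SE 0.184, adjusted p = 0.447 in edgeR). The Gapdh locus, named after its values were seen, held only 167 to 301 reads in a library, against 2662 to 4372 for Aldoa of the same list. The reason was not tested. Gapdh was counted among the lower genes (log2 fold change -0.33), and its value is uncertain. Hmox1, the heme oxygenase gene, was chosen after its values were seen, and was high in replicate 3 of both genotypes, at 24.3, 19.4 and 85.6 CPM in OgaVav-Cre against 36.7, 19.9 and 119 CPM in wildtype.

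**Figure D5:**
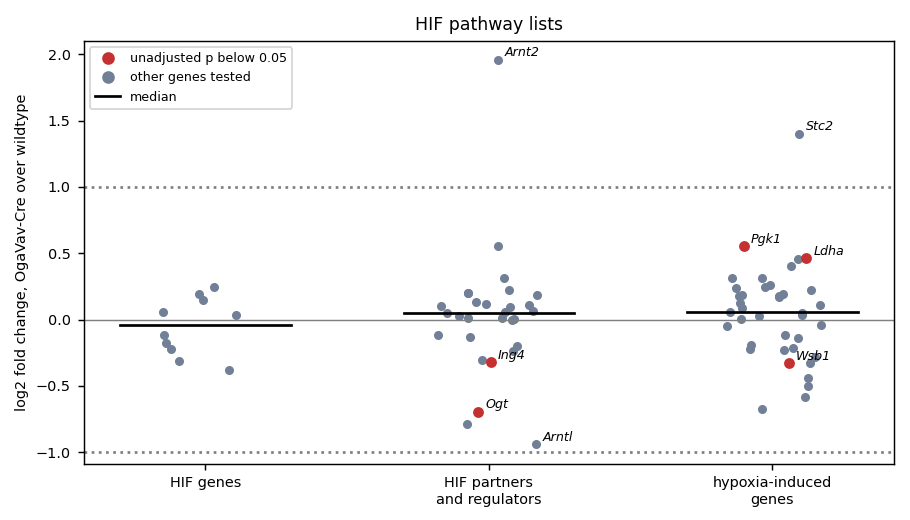
Log2 fold change of OgaVav-Cre over wildtype for the 10 HIF genes, the 29 tested HIF partners and regulators and the 39 tested hypoxia-induced genes, each point 1 gene, with black bars at the medians, red points at an unadjusted p-value below 0.05 and dotted lines at -1 and 1. Medians were -0.04, 0.05 and 0.05, with 0 genes called changed in any list. Arnt2 and, named after its value was seen, Stc2 were above 1.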

How the data were processed

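Poly(A) RNA-Seq libraries of sorted LSK cells (NEBNext Ultra kit) were sequenced by the authors as single-end reads, aligned to mm9 and summarized per locus with Genomatix. The submitters' processing notes also name CASAVA 1.8.2. Versions of the aligner, counter and annotation, and the use of strand, are not given in the sources used here. The authors deposited raw read counts per locus and RPKM, which they made from these counts, the locus length and the library size. Their fold changes, p-values and normalized expression were not used. Groups came from the labels.

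Counts were tested in R 4.3.3 with edgeR 4.0.16 (TMM, filterByExpr, glmQLFit and glmQLFTest, genotype as the only term) on all loci, and the CPM given are TMM-scaled. The test was also run on simulated counts with 200 loci changed. All loci were given the same dispersion there, and the changes were larger than that of any member. That run therefore does not show the power for changes as small as those of the members. Replicates differed beyond counting noise, and none was a repeat of another. Shares were tested with exact permutation tests. Of 6419 loci named by an Ensembl number, 6406 were matched to a symbol. Alternatives used DESeq2 1.42.0, limma 3.58.1 (voom on counts, and limma-trend on RPKM with pseudocounts of 0.1 and 1), other filters, covariates and left-out libraries. Python 3.11.15 made the tables. Promoters were searched by exact letters.

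The genes named are all members, the genes of each list at an unadjusted p-value below 0.05 and in any case the 5 with the smallest p-value, Mgea5, the 3 most abundant markers of each list, loci overlapping a member (named where they held reads in number), and the 3 loci most like Hif1a and Epas1. The 10 plasma cell markers, led by Igkc, Ighm and Igj, summed to 112824 CPM in OgaVav-Cre replicate 1 and to 12124 to 56068 CPM in the other libraries. Of these markers, 0 were called changed. Members and lists were chosen with earlier results of these data known.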

Additional observations from a re-analysis of the deposited data

How the results depend on the processing

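No member was called changed under any of 19 alternatives, of which the sum of all loci of a symbol applied to Hif1a and Vegfa alone. Of 182 member fold changes under these, 172 kept their direction, 10 turned and 0 had an adjusted p-value below 0.05 (lowest 0.322, Egln1 without wildtype replicate 1). The turned values were those of Hif1a, Epas1 and Arnt, and the cause was not tested. Leaving out 1 library at a time gave log2 fold changes of -0.23 to 0.19 for Hif1a, turning without OgaVav-Cre replicate 3 and without wildtype replicate 2 (-0.02), -0.64 to 0.26 for Epas1 and -0.01 to 0.093 for Arnt. Without both replicate 3 libraries, an alternative chosen after seeing the data, Hif1a was at -0.25 and Arnt at -0.021. In RPKM with a pseudocount of 0.1, Hif1a was at -0.047 and Arnt at -0.033, and with a pseudocount of 1 at -0.041 and -0.025. Those scales moved the median of all loci to -0.065 and -0.041.

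The count of changed loci, 7, was 21 with no filter on low counts, 4 with at least 10 reads in every library, 117 in DESeq2 (35 higher, 82 lower), 4 in RPKM with a pseudocount of 1 (all lower), 4 without both replicate 3 libraries and 3 to 9 with 1 library left out. Between genotypes, leaving out 1 library moved the difference in Hif1a share from -0.26 to 1.70 percentage points, in Egln2 share from -1.30 to 2.94 and in the ratio of hydroxylase to alpha subunit RPKM from -0.023 to 0.52, so that their direction rested on single libraries. The Egln3 share difference ranged from -4.95 to -2.02 and that of Egln1 from 0.75 to 5.16, without a change of direction.

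Deviations of same-numbered libraries from the group means correlated at -0.08, 0.26 and 0.32 for replicates 1, 2 and 3. The same-numbered wildtype library was the best match for OgaVav-Cre replicates 2 and 3. OgaVav-Cre replicate 1 correlated best with wildtype replicate 2 (0.206). Whether same-numbered libraries shared a batch is not given in the labels and was not tested. With a replicate block, 6 loci (2 higher, 4 lower) and 0 members were called changed. The spread between replicates exceeded counting error for Epas1 and Hif1a, so depth alone did not set their precision.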
